A study of Mus musculus with 9 samples.

Results

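The genes examined were the RUNX transcription factors Runx1, Runx2 and Runx3, their partner Cbfb, the cartilage transcription factors Sox5, Sox6 and Sox9, the bone transcription factor Sp7, and the cartilage matrix genes Acan and Comp. They are 10 of 21911 protein-coding genes in GENCODE M21. Accessible sites were assigned to a gene when they met its body or the 10 kb on either side, which took 162 of the 128522 sites formed by merging the peaks of all 4 groups. Promoter peaks were those within 1 kb of an annotated transcription start site (TSS).

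Chromatin accessibility had been measured by ATAC-seq, in which a transposase cuts open DNA, in primary mouse embryonic fibroblasts (MEFs) at early passage. The groups were wild-type MEFs (WT, 3 libraries), MEFs null for the histone chaperone ANP32E (Anp32e null, 3 libraries), Anp32e null MEFs given a non-targeting siRNA pool (NT siRNA, 1 library) and Anp32e null MEFs given a pool of siRNAs against the histone variant H2A.Z (H2A.Z siRNA, 2 libraries). Both siRNA groups thus share the Anp32e null genotype and a transfection that the other null group did not have. The authors called peaks once per group on merged libraries, so each group is 1 list, no difference between lists has a replicate check, and no test between groups was possible. WT and null MEFs came from different embryos, so genotype and cell preparation cannot be told apart, and the number of embryos is not given in the sources used here.

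Peaks on the assembled chromosomes numbered 84040 in the WT list, 82567 in Anp32e null, 89272 with NT siRNA and 108409 in H2A.Z siRNA. They differed in depth: the list-wide background, taken as the most frequent background estimate among its peaks, was 8.85, 5.12, 3.88 and 17.8 fragments per position, respectively, and a summit over that background was called from 19, 13, 11 and 32 fragments upward, or 2.15, 2.54, 2.84 and 1.8 times the background. The median summit stood at 5.65, 8.4, 13.9 and 8.75 times the background. Sites are therefore compared by the percentile of their deposited fold enrichment, which is relative to the local background, within their own list, where 100 is the strongest peak. Multiples of the background below refer to the list-wide value instead, so the 2 measures can order sites differently. Fragments are given with a 95% Poisson interval that covers counting error only. All 10 fibroblast markers had a promoter peak in every list, as did 4 of 10 markers of other cell types and 63.8% of all protein-coding genes, so a promoter peak alone says little about cell identity. One over-tagmented library of the H2A.Z knockdown experiment had been left out by the authors, who do not say from which siRNA. Promoter peaks of the other-type markers numbered 5, 4, 6 and 7 in the same order, and none was found in any list at Ptprc, Nanog or Alb, markers of leukocytes, pluripotent cells and hepatocytes. Their part in the results below was not tested.

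RUNX proteins bind DNA through a Runt domain and need CBFB, which does not bind DNA itself, for stable binding. RUNX1 is a regulator of blood formation that is also made in mesenchymal cells, RUNX2 is required for osteoblasts, and RUNX3 acts in neurons, T cells and cartilage. Each Runx gene is transcribed from a distal and a proximal promoter. SOX9 is required for cartilage and, together with SOX5 and SOX6, turns on cartilage matrix genes such as Acan, which encodes aggrecan, and Comp, which encodes cartilage oligomeric matrix protein. SP7, also called osterix, acts after RUNX2 in the osteoblast lineage. MEFs are a mixed mesenchymal culture.

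Most members had an open promoter in each list. A promoter peak was found for 9 of 10 genes in WT, in Anp32e null, with NT siRNA and with H2A.Z siRNA, compared with 67.2%, 66.7%, 66.9% and 68.4% of all protein-coding genes. The missing gene was Sp7 in WT and Acan in each of the other lists. With protein-coding transcripts alone the counts were 9, 9, 8 and 8. Sox5 was then lost in both siRNA lists, where its peak lay at a start not annotated as coding. Promoter peaks were present in all 4 lists for 8 members, against 63.8% of protein-coding genes. The start sites of the members formed 28 clusters when those within 1 kb were joined, and 19, 18, 17 and 16 clusters had a peak in the respective lists. Of these clusters, 14 had a peak in every list and 7 had none in any.

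**Figure D1:**
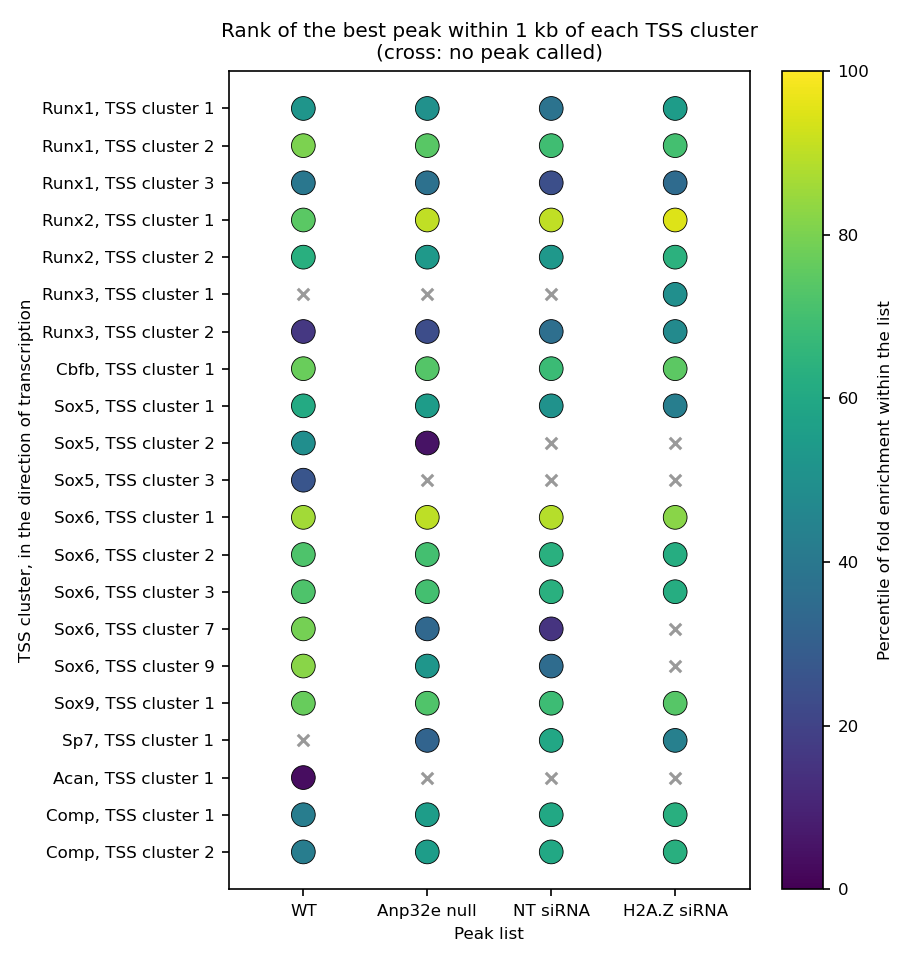
Percentile of fold enrichment (color, 0 to 100) of the best peak within 1 kb of each TSS cluster that had a peak in at least 1 list, with clusters on the vertical axis and the 4 peak lists on the horizontal axis. A cross marks no peak. The first Runx2 cluster ranks at 74.6 in WT and at 90.3 or above in the other lists, whereas Sox6 clusters 7 and 9 rank at 79.2 and 82.1 in WT and have no peak after H2A.Z siRNA.

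The Runx1, Runx2 and Runx3 windows, 661 kb in all, held 48 sites in WT, 44 in Anp32e null, 63 with NT siRNA and 77 with H2A.Z siRNA. The Sox5 and Sox6 windows, 1561 kb in all, held 52, 42, 23 and 32. The windows of the other 5 members held 17, 16, 19 and 21. The Runx set and the Sox5 and Sox6 set were formed after the data were seen. The H2A.Z siRNA list, the deepest, had fewer Sox5 and Sox6 sites than WT. With every list thinned to the NT siRNA background, which equalizes the background and not the fragments at summits, an alternative chosen after seeing the data for these gene sets, the Runx windows held 45, 44, 63 and 71 sites and the Sox5 and Sox6 windows 50, 41, 23 and 28.

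**Figure D2:**
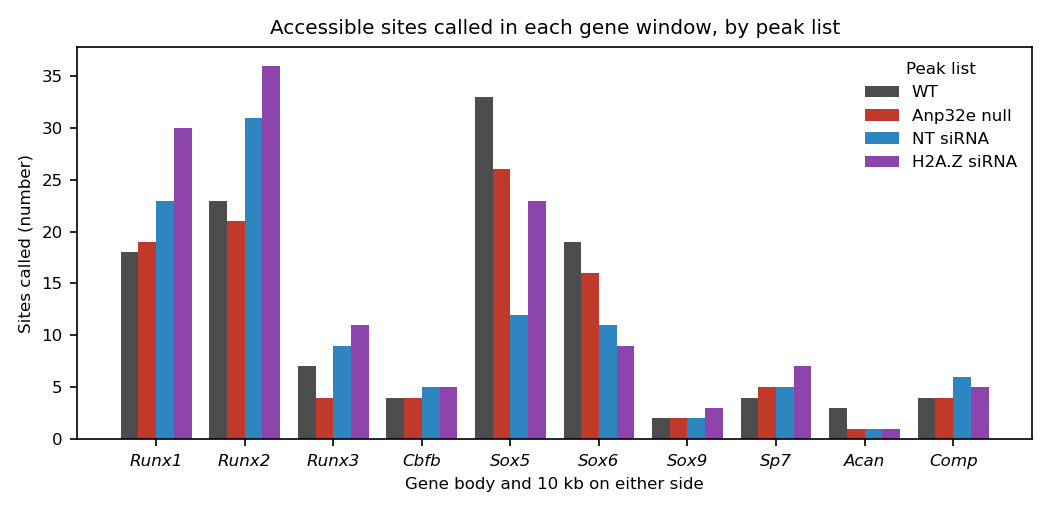
Number of accessible sites called in the gene body and 10 kb on either side (vertical axis) for each of the 10 genes (horizontal axis), with 1 bar per peak list. Runx2 has 23 sites in WT and 36 after H2A.Z siRNA, whereas Sox6 has 19 and 9.

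Runx1 (chr16:92601466-92826149, minus strand, mm10) was open at both promoters in all lists. At the distal promoter, the first TSS cluster, the percentile was 52.3 in WT, 50.1 in Anp32e null, 38.1 with NT siRNA and 55 with H2A.Z siRNA. At the proximal promoter, the second cluster, it was 80.4, 74.1, 69.2 and 70.3. The proximal promoter thus ranked above the distal one in every list, with 175 fragments in WT and 1740 in the far deeper H2A.Z siRNA list. Its window held 18, 19, 23 and 30 sites, of which 16 were called in all lists.

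The Runx1 site of highest fold was intronic, at chr16:92710153-92710793, 116 kb into the gene, with percentiles of 90.3, 82, 88.3 and 95.3. Another intronic site, at chr16:92635260-92636038, had the largest rank difference in favor of null among the sites called in all lists. It stood at percentile 12.4 in WT, with 3.16 times the background, and at 51.3, 43.7 and 53.5 in the other lists, with 7.42, 12.4 and 10.3 times. All 3 null-genotype lists were above WT there. Its opposite was chr16:92673842-92674968, also intronic, at 85.6 in WT and 51.3 in null but 90.7 with NT siRNA and 80.9 with H2A.Z siRNA. That difference between WT and null was therefore not found between WT and the siRNA lists. The site at chr16:92737988-92739345 was absent from the WT list and had percentiles of 18.2, 38.7 and 62.8 in the null-genotype lists.

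Runx2 (chr17:44495987-44814797, minus strand) had the largest number of sites among the RUNX genes. At its distal promoter, from which the osteoblast isoform starts, the percentile was 74.6 in WT, 90.4 in Anp32e null, 90.3 with NT siRNA and 94.9 with H2A.Z siRNA. The summit held 64, 92, 170 and 904 fragments, or 7.23 (5.57 to 9.23), 18 (14.5 to 22), 43.8 (37.5 to 50.9) and 50.8 (47.5 to 54.2) times the background. These multiples carry the difference in scale between the lists, whose median summits stood at 5.65, 8.4, 13.9 and 8.75 times. At the distal Runx1 promoter they were 10.5, 21.5, 43.8 and 45.4, although its percentile was lower in null than in WT. At the proximal Runx2 promoter the percentiles were 62.9, 53.6, 53.4 and 63.8. The distal promoter ranked above the proximal one in every list, and the gap was wider in each of the null-genotype lists than in WT.

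Across the Runx2 body, 23, 21, 31 and 36 sites were called, and 20 were shared by all lists. The site of highest fold was intronic, 314 kb from the distal start, at chr17:44499974-44501029, with percentiles of 98.7, 97.3, 96.8 and 92.5, below the distal promoter in the H2A.Z siRNA list alone. The site at chr17:44599644-44602139 had the second largest rank difference in favor of null, at 34.5 in WT and 69.1, 78.7 and 80 in the other lists. Its counterpart at chr17:44659823-44660702 was lower in null, at 38.9 in WT and 7.92 in null, but at 48.8 and 36.4 in the siRNA lists. The site at chr17:44540808-44541450 was called in every list but WT, at 27.7, 55.2 and 67.3, and its null summit stood at 4.3 times the background, above the 2.15 times from which WT sites were called. Supt3 starts 37.8 kb into Runx2 and runs on the opposite strand across the distal Runx2 promoter, so sites in the shared stretch cannot be assigned to either gene. Its own promoter was called in all lists, at 76.4, 79.5, 83.2 and 84.1.

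In the Runx windows, sites in neither WT nor null made up 12 of 62 sites called in both siRNA lists (19.4%, 95% Wilson interval 11.4 to 30.9%), compared with 14.2% of all sites. Runx2 held 7 of them. The strongest after H2A.Z siRNA, at chr17:44667233-44667944, had percentiles of 54.7 with NT siRNA and 85.1 with H2A.Z siRNA and no peak in the untransfected lists. Set against the list of the same genotype without transfection, NT siRNA had 19 Runx sites that null lacked (30.2% of 63, 20.2 to 42.4%, against 19.2% of all sites) and null had no site that NT siRNA lacked (0 of 63, upper bound 5.75%, against 13.1%). Transfection and the number of libraries differ between these lists, and their effects cannot be told apart.

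**Figure D3:**
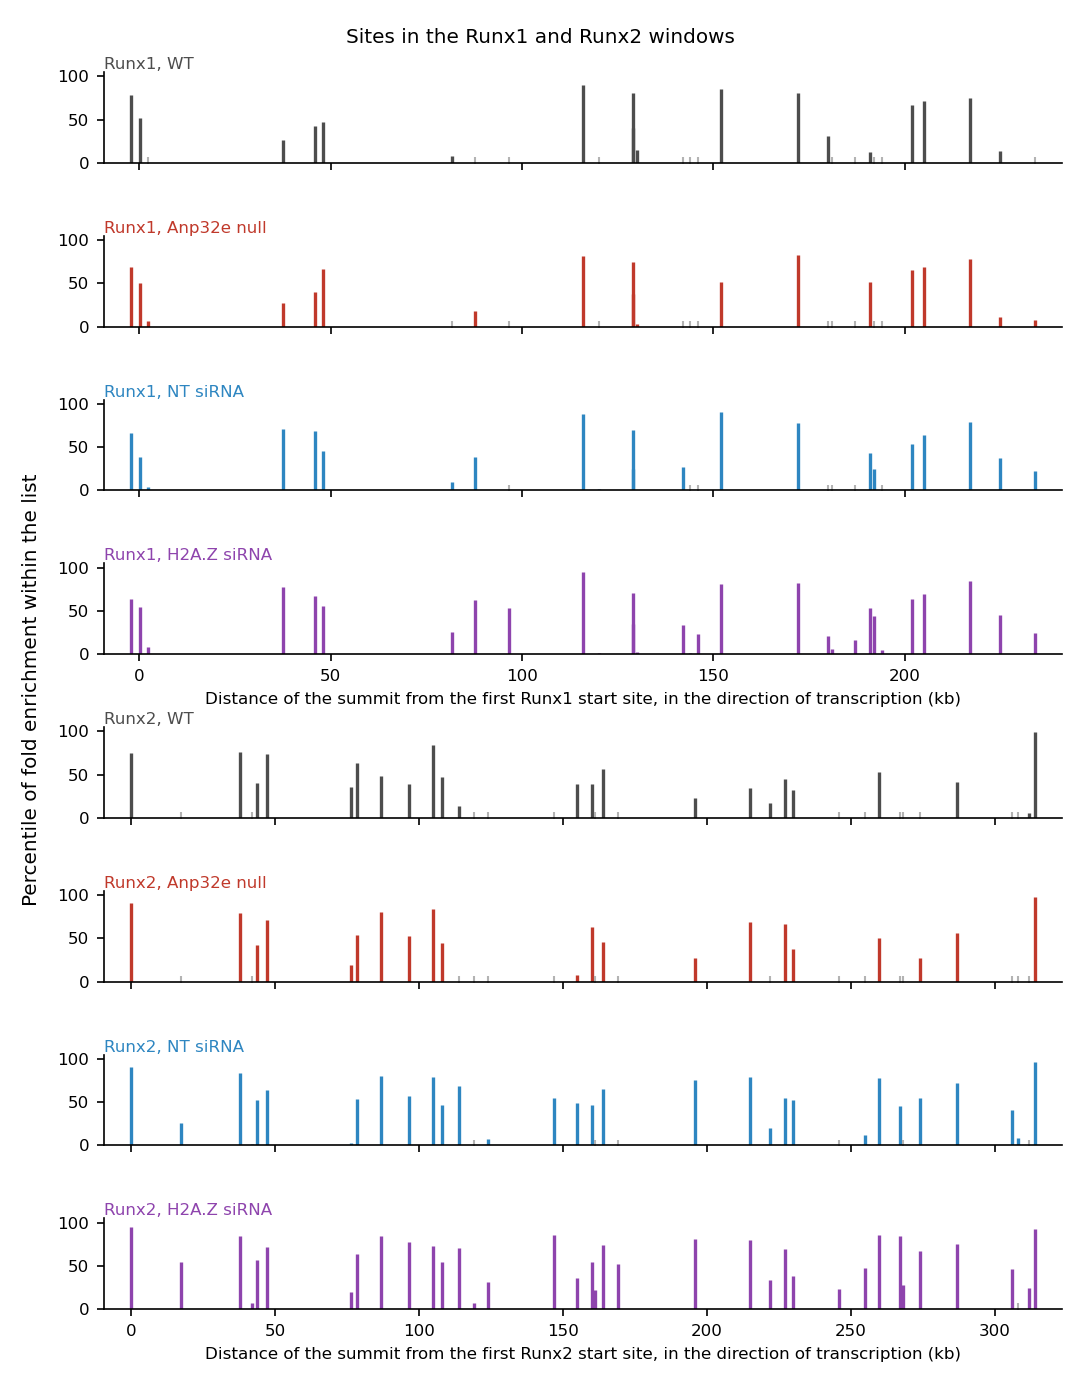
Sites in the Runx1 and Runx2 windows, 1 panel per peak list. The horizontal axis is the distance of the summit from the first start site in kb, the vertical axis is the percentile of fold enrichment within the list, and grey ticks mark sites called only in another list. In the Runx2 panels 23 sites are called in WT, 21 in null, 31 with NT siRNA and 36 with H2A.Z siRNA. Grey ticks are thus most numerous in null and fewest with H2A.Z siRNA.

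Runx3 (chr4:135120652-135177990, plus strand) was the weakest of the RUNX genes. Its proximal promoter, the second TSS cluster, ranked at 16.1 in WT, 23.2 in Anp32e null, 36 with NT siRNA and 47.5 with H2A.Z siRNA, with 51, 36, 106 and 366 fragments. Its distal promoter had a peak after H2A.Z siRNA alone, at percentile 49.6 and 5.62 (4.57 to 6.83) times the background, with the summit at -1549 bp from the start and also near a start of Gm16225. That enrichment is above the 2.84 times at which the shallower NT siRNA list called peaks. The window held 7, 4, 9 and 11 sites. The strongest, intronic at chr4:135146481-135147427, had percentiles of 60.4, 43.9, 75.7 and 78.

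Cbfb (chr8:105170674-105217989, plus strand), the shared partner, had a promoter peak in all lists. Its promoter ranked at 77, 73.4, 68 and 74.9, in a peak of 1837, 1776, 1736 and 1774 bp. An intronic site 16 kb into the gene, at chr8:105186136-105187108, ranked at 98.8, 98.7, 97.3 and 98.1. A further site upstream, at the start of Gm3830, chr8:105164195-105165498, varied more, at 49.4, 62, 40 and 70.4. The window held 4, 4, 5 and 5 sites, and 4 were called in all lists.

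Windows of mm10 centered on the summits of these sites, read on the strand of the gene, are shown as examples of sites described above. Capitals mark matches, on either strand, to a RUNX (TGTGGT), SOX (AACAAT), AP-1 (TGANTCA), TEAD (GGAATG) or SP1 (GGGCGG) consensus. The first is the summit upstream of the distal Runx2 promoter, the next is the Runx2 intronic site absent from WT, then the Runx1 intronic site that ranked higher in all null-genotype lists, and last the constant Cbfb intronic site.
Runx2 distal promoter, chr17:44814925-44815025, minus strand: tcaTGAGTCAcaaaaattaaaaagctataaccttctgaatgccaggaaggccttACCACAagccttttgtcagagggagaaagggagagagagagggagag
Runx2 intron, chr17:44541173-44541273, minus strand: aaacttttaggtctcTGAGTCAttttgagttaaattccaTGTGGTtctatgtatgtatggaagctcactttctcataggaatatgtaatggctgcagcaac
Runx1 intron, chr16:92635589-92635689, minus strand: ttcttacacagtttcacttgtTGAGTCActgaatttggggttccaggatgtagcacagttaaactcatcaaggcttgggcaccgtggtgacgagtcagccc
Cbfb intron, chr8:105186643-105186743, plus strand: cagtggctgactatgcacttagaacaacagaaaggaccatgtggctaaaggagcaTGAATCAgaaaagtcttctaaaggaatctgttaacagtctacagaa
These windows were picked with their matches known: each holds an AP-1 consensus, and both Runx2 windows also hold a RUNX consensus, in the promoter window as its reverse complement. They do not stand for the other sites. The windows of the other intronic Runx1, Runx2 and Runx3 sites named by rule held neither consensus. Over all Runx1, Runx2 and Runx3 sites, AP-1 was found in 21 of 78 windows (26.9%, 18.3 to 37.7%, against 19.5% of all sites) and RUNX in 10 (12.8%, 7.12 to 22%, against 11.7%).

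Sox5 (chr6:143828425-144781977, minus strand) is the longest member and had fewer sites in both siRNA lists than in WT or null. Its first TSS cluster, which holds starts of transcripts that are not annotated as coding, had a peak in all lists, at percentiles of 60.9 in WT, 54.7 in Anp32e null, 50.8 with NT siRNA and 42.3 with H2A.Z siRNA. The second cluster, with protein-coding starts, ranked at 48.9 in WT, with 43 fragments, and at 4.97 in null, with 15 at a summit -783 bp from the start, and had no peak in the siRNA lists. The third cluster had a peak in WT alone, at 26.5, with 28 fragments or 3.16 (2.1 to 4.57) times the background. The fourth cluster, a protein-coding start further down, had no peak in any list. At clusters 2 and 3 the peaks of WT were thus weaker or missing elsewhere, and WT enrichment at the second cluster, 4.86 (3.52 to 6.54) times, exceeded the lowest multiple at which each other list called peaks.

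The Sox5 window held 33, 26, 12 and 23 sites, and 10 were called in all lists. Of its sites, 10 were called in WT alone. The strongest of these were intronic, at chr6:144186074-144186397 (percentile 47.2, 4.29 times the background) and chr6:143967985-143968419 (46.5, 4.18 times). At chr6:144165967-144167148, a further intronic site, the percentile was 88.5 in WT, 47.1 in null, 9.48 with NT siRNA and 29.6 with H2A.Z siRNA. This was the largest rank difference against null among the sites called in all lists, and WT stood at 10.6 times the background against 5.86, 3.87 and 3.65. A larger one, outside the rule for named sites and picked after its values were seen, was at chr6:144116468-144117151, with 68.6 in WT, 14.7 in null and no peak in the siRNA lists. In contrast, the Sox5 site of highest fold, intronic at chr6:144074674-144075587, ranked at 98.7, 98.4, 98.4 and 99.2.

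Sox5 sites were not uniform along the gene. The sites at chr6:144710689-144711230 and chr6:144716233-144716967, 71 and 65.4 kb downstream of the first start, were also picked after their values were seen. They ranked at 51.4 and 52.7 in WT, 71.8 and 76.6 in null, 73.4 and 59.2 with NT siRNA and 86.7 and 73.4 with H2A.Z siRNA. Here all null-genotype lists were above WT.

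Sox6 (chr7:115470872-116038796, minus strand) had a peak at its most upstream start in all lists, with the site's summit at -1.55 kb, at percentiles of 86.1, 89.9, 88.8 and 82.3. The third TSS cluster, further down, was also called in all lists, at 71.9, 70.3, 63.5 and 62.1. The internal starts differed. At the seventh cluster, a protein-coding start, the percentile was 79.2 in WT, 33.4 in null and 14.9 after NT siRNA, with 115, 24 and 17 fragments, and no peak was called after H2A.Z siRNA. At the ninth cluster, the start of a noncoding transcript, it was 82.1, 52.5 and 34.8, with 77, 33 and 25 fragments, again with no peak after H2A.Z siRNA. In WT these clusters stood at 13 (10.7 to 15.6) and 8.7 (6.87 to 10.9) times the background, while the H2A.Z siRNA list called peaks from 1.8 times.

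The Sox6 window held 19, 16, 11 and 9 sites, and 8 were called in all lists. The intronic site at chr7:116013910-116014509, which lies over an exon of the antisense gene Gm45025, ranked highest among sites called in WT alone (54.2, 4.75 times the background). The site of highest fold in the window, at chr7:115734170-115734814, ranked at 99.6 and 99 in WT and null and at 73.4 and 88.6 in the siRNA lists. One intronic site went the other way in null, at chr7:115645169-115646617, with 38.9 in WT and 72.5, 45.9 and 58.9 in the other lists. It was the only Sox5 or Sox6 site among the 3 with the largest rank difference in favor of null.

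**Figure D4:**
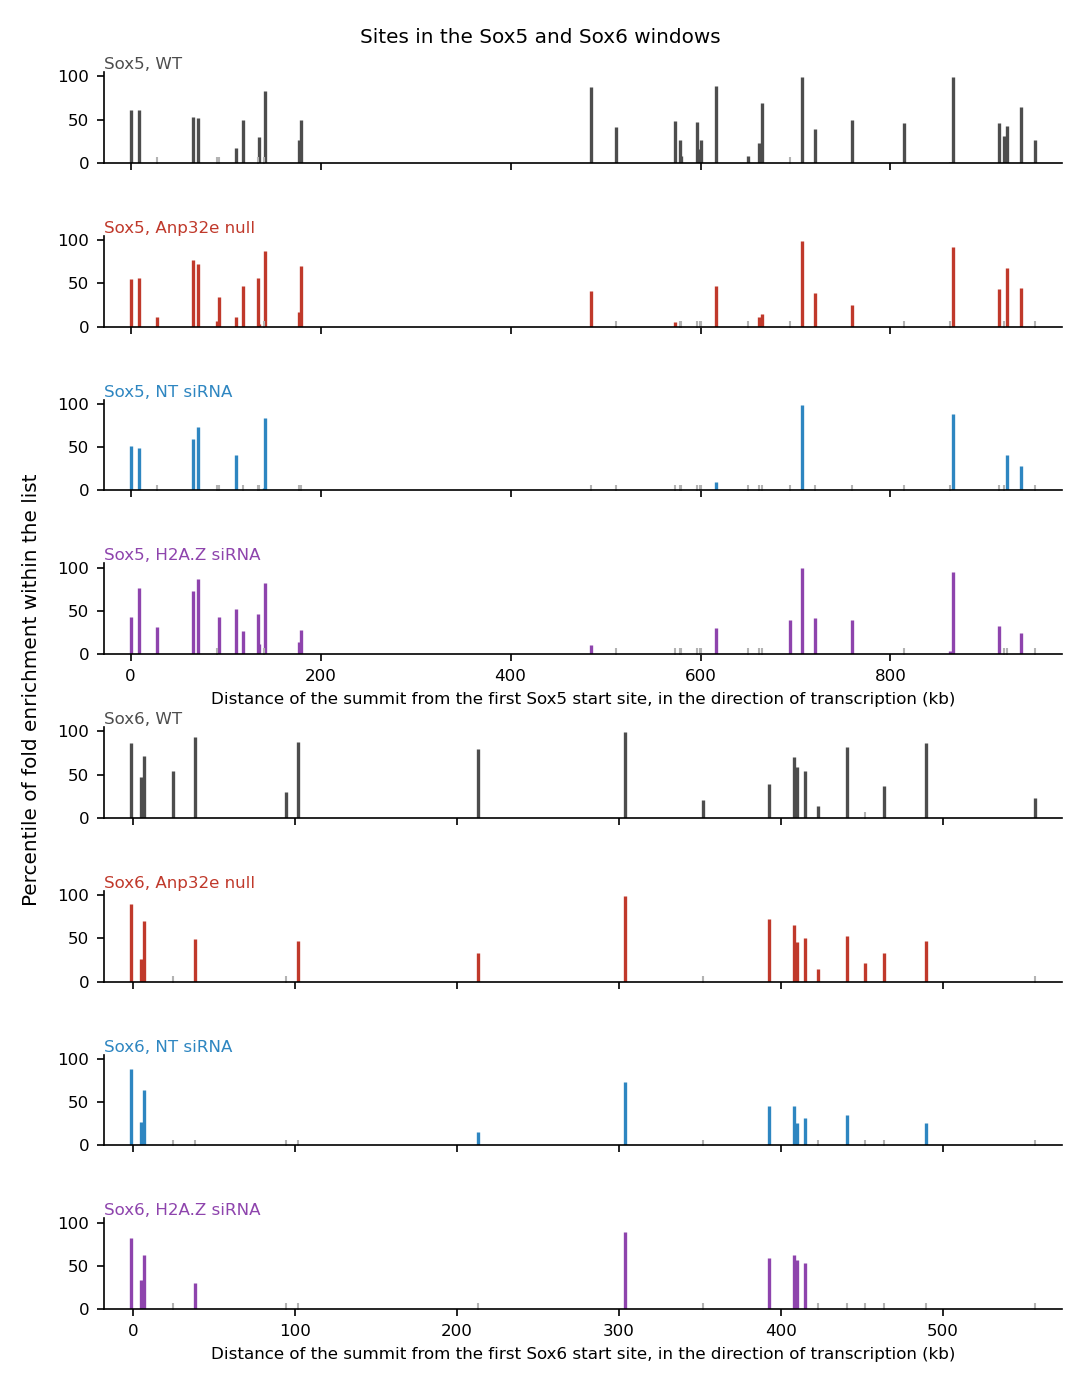
Sites in the Sox5 and Sox6 windows, 1 panel per peak list, with the distance of the summit from the first start site in kb on the horizontal axis and the percentile of fold enrichment within the list on the vertical axis. Grey ticks mark sites called only in another list. WT has 33 Sox5 and 19 Sox6 sites, against 12 and 11 after NT siRNA.

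Sox5 and Sox6 were joined after the data were seen, so the shares and intervals below describe this set and do not test it. NT siRNA was 1 library and called peaks from 2.84 times the background, the highest multiple of the 4 lists. Taking both genes, 30 of 52 WT sites were missing from the NT siRNA list (57.7%, 44.2 to 70.1%), compared with 21.6% of all WT sites. From the H2A.Z siRNA list 24 were missing (46.2%, 33.3 to 59.5%), compared with 15.9%. In the Runx windows the counts were 2 of 48 and 0 of 48. Of 37 Sox5 and Sox6 sites called in both WT and null, 6 had no peak in either siRNA list (16.2%, 7.65 to 31.1%, against 4.37% of all such sites). Between the lists of the null genotype, 20 of 43 sites were in null and not in NT siRNA (46.5%, 32.5 to 61.1%, against 13.1% of all sites) and 1 was in NT siRNA and not in null (2.33%, 0.412 to 12.1%, against 19.2%). The number of sites thus differed more between the untransfected and NT siRNA lists of the same genotype, 42 and 23, than between WT and null, 52 and 42.

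Summit windows of several Sox sites described above follow, with the same capitals, as examples of sites that differed between the lists and of 1 that did not. They are the ninth Sox6 TSS cluster, the Sox6 intronic site of highest fold, the Sox5 intronic site with the largest rank difference against null, a Sox5 site called in WT alone, and the constant Sox5 site.
Sox6 cluster 9, chr7:115598208-115598308, minus strand: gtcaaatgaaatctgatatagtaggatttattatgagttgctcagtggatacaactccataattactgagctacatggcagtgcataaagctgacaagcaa
Sox6 intron, chr7:115734429-115734529, minus strand: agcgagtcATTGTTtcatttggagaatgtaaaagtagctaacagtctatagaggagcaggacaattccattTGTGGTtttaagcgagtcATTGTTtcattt
Sox5 intron lower in null, chr6:144166344-144166444, minus strand: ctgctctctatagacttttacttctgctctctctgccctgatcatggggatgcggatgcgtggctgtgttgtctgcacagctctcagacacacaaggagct
Sox5 intron, WT alone, chr6:143968071-143968171, minus strand: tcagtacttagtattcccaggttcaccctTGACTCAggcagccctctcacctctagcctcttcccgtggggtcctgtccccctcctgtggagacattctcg
Sox5 intron, constant, chr6:144074987-144075087, minus strand: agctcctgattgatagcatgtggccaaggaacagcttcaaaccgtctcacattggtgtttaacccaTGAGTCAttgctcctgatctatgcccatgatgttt
The Sox6 intronic window held the SOX consensus at 2 positions and a RUNX consensus. Both the constant and the WT-only Sox5 windows held an AP-1 consensus, and none of the 5 was found in the other windows shown here. These windows too were picked with their matches known. Over all Sox5 and Sox6 sites, AP-1 was found in 18 of 59 windows (30.5%, 20.3 to 43.1%, against 19.5% of all sites) and SOX in 3 (5.08%, 1.74 to 13.9%, against 4.2%).

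Sox9 (chr11:112782224-112787760, plus strand) had a peak at its promoter in all lists. The percentile was 76.9 in WT, 72.6 in Anp32e null, 68.6 with NT siRNA and 73.7 with H2A.Z siRNA, with 174, 179, 205 and 703 fragments. A second site, at -0.688 kb from the start and near a start of the neighboring gene BC006965, ranked at 50.6, 29, 31.2 and 36.8, lower in each null-genotype list than in WT. A site 5.83 kb downstream, just past the end of the gene, was called after H2A.Z siRNA alone, at 36.1.

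Sp7 (chr15:102356606-102367182, minus strand) was the only member without a promoter peak in WT. The promoter site at chr15:102366529-102367154 lies over the 5′ untranslated region. It ranked at 31.9 in null, 59.5 with NT siRNA and 43.2 with H2A.Z siRNA, with 25, 48 and 133 fragments, or 4.88 (3.16 to 7.21), 12.4 (9.12 to 16.4) and 7.47 (6.26 to 8.86) times the background. All 3 lists of the null genotype thus had the peak at an enrichment above the 2.15 times from which WT peaks were called. A site over its last exon, at chr15:102358349-102359729, ranked at 42.4 in WT and at 59.9, 57.3 and 66.9 in the others. The strongest site in the window lies at the promoter of the neighboring gene Aaas, at 84.8, 85, 87.3 and 82.5.

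Acan (chr7:79053483-79115099, plus strand) had a promoter peak in WT alone, and it was one of the weakest of that list. Its percentile was 3.27, with 23 fragments or 2.6 (1.65 to 3.9) times the background, which is below the 2.84 times that the NT siRNA list required but above the 2.54 and 1.8 times of null and H2A.Z siRNA. An intronic site at chr7:79080729-79081395, 27.5 kb into the gene, was called in all lists, at 40, 46.5, 72.5 and 63.7. Only the intronic site was thus detected outside WT. The WT promoter peak, at a −log10 p of 3.91, was lost at a −log10 q of 5 or more. There, 8 members had a promoter peak in WT.

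Comp (chr8:70373558-70382066, plus strand) had a promoter peak in all lists and a site just upstream, which ordered the lists differently. At the upstream site, chr8:70371633-70372707, which came within 1 kb of the start in the H2A.Z siRNA list alone, the percentile was 45.3 in WT, 25.9 in null, 41.9 with NT siRNA and 45.7 with H2A.Z siRNA. The promoter peak, whose summit lay closer to the start of a noncoding transcript than to the first start, ranked at 41.9 in WT, 55.4 in null, 59.9 with NT siRNA and 62.9 with H2A.Z siRNA, with 82, 77, 246 and 809 fragments. The sites downstream of the gene, at chr8:70382821-70384167 and chr8:70389382-70390352, ranked at 19 and 30.7 in WT, 28.8 and 41.8 in null, 76.6 and 68.9 with NT siRNA and 73.6 and 80.3 with H2A.Z siRNA. The first of these overlaps an untranslated region of Crtc1, so its assignment to Comp is by distance only. Both siRNA lists were above WT and null at these downstream sites and at the promoter peak.

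To see how the windows stood with and without ANP32E, WT and Anp32e null sites were set against each other. Of 128 sites called in either, 11 were called in null and not WT (8.59%, 4.87 to 14.7%, against 14.6% of all sites) and 26 in WT and not null (20.3%, 14.3 to 28.1%, against 16.4%). The 26 included 15 of 57 Sox5 and Sox6 sites (26.3%, 16.6 to 39%) and 8 of 52 Runx sites (15.4%, 8.01 to 27.5%). Of the 91 sites called in both, 33 ranked higher in null (36.3%, 27.1 to 46.5%), compared with 46.3% of all sites. A rank at least 10 points higher in null was found at 18 sites (19.8%, against 19.1%) and at least 10 points lower at 24 (26.4%, against 21.4%). The median rank difference was -2.62 points, and -0.741 over all sites.

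In the Sox5 and Sox6 windows 8 of 37 sites ranked higher in null (21.6%, 11.4 to 37.2%), with a median difference of -5.93 points, and the share stayed below that of all sites where the latter was computed, for example from 24.3% at equal depth (49.6% of all sites) to 36.7% at a −log10 q of 5 or more (51.2%). The top 20000 peaks, with 5 sites, gave 40%, and no value over all sites was computed there. In the Runx windows 18 of 40 ranked higher (45%, 30.7 to 60.2%), with a median of -1.68 points. Runx2 had 12 of 20, Runx1 5 of 16 and Runx3 1 of 4, so the higher Runx share lay in Runx2, and the intervals of the Runx and Sox sets overlap. The direction for the whole set and for the Runx genes depended on the setting, since at a −log10 q of 5 or more the shares were 51.2% and 61.1%. The share over all sites was also 51.2% there, so the whole set did not differ from it.

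**Figure D5:**
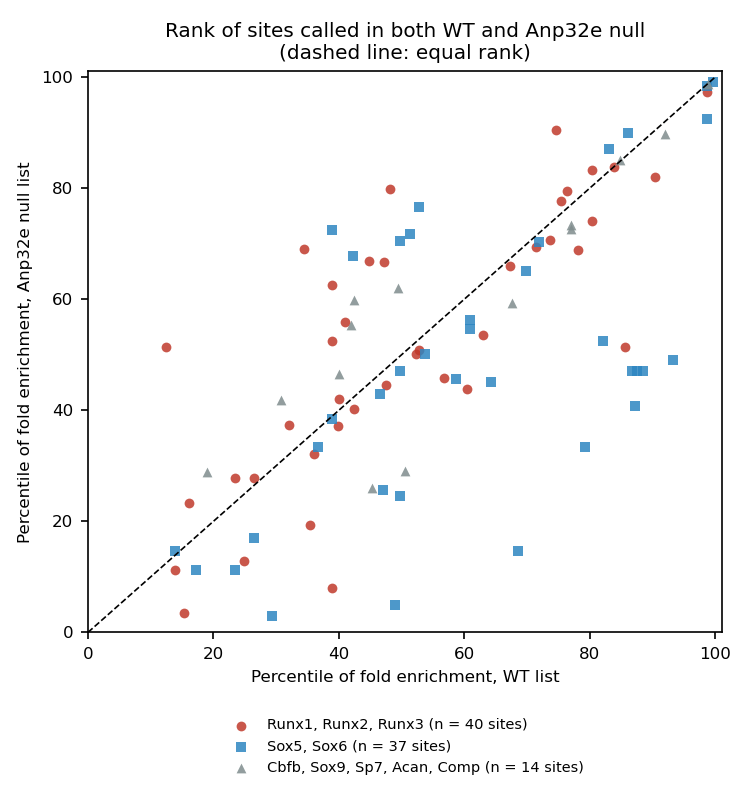
Percentile of fold enrichment in the Anp32e null list (vertical axis) against WT (horizontal axis) for the 91 sites called in both, colored by gene set. The dashed line marks equal rank. Of the 37 Sox5 and Sox6 sites, 8 lie above the line.

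The siRNA lists were compared next, to see how the sites stood after H2A.Z depletion. Of 137 sites called in either list, 32 were called after H2A.Z siRNA and not NT siRNA (23.4%, 17.1 to 31.1%, against 23.5% of all sites) and 7 after NT siRNA and not H2A.Z siRNA (5.11%, 2.5 to 10.2%, against 4.16%). Both shares were close to those of all sites. Sox5 and Sox6 departed in opposite directions. At Sox5 13 of 25 sites were called after H2A.Z siRNA and not NT siRNA (52%, 33.5 to 70%), and at Sox6 3 of 12 were called after NT siRNA and not H2A.Z siRNA (25%, 8.89 to 53.2%), including the internal clusters 7 and 9. Of the 98 shared sites, 81 ranked higher after H2A.Z siRNA (82.7%, 74 to 88.9%), compared with 71.3% of all sites. At least 10 points higher were 35 (35.7%, against 33.6%) and at least 10 points lower 3 (3.06%, against 6.08%). The share changed with the setting. With all lists cut to an equal number of peaks, the share was 53.4% (47.2% of all sites), and among sites called in all lists 54.2% (48.2%).

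Rank was also compared between the untransfected null and NT siRNA lists, which share a genotype. NT siRNA ranked higher at 25 of 44 Runx sites (56.8%, 42.2 to 70.3%) and at 3 of 22 Sox5 and Sox6 sites (13.6%, 4.75 to 33.3%), against 52.1% of all sites. The median difference was -4.5 points over 11 Sox5 sites and -18.7 over 11 Sox6 sites, while the 2 Sox9 sites had -0.929. At Runx3 and at Comp all 4 sites ranked higher with NT siRNA, by a median of 10.6 and 21.5 points, at Cbfb 0 of 4 did, with a median of -6.16, and at Runx1 8 of 19, with -2.68.

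The median width in the windows was 589 bp in WT, 537 bp in Anp32e null, 535 bp after NT siRNA and 724 bp after H2A.Z siRNA, and medians over all peaks were 572, 561, 539 and 658 bp. Of sites called in both WT and null, 38 of 91 were wider in null (41.8%, against 45% of all sites). After H2A.Z siRNA 91 of 98 were wider than after NT siRNA (92.9%, against 90.8%), and the H2A.Z siRNA list was also the deepest. The part of depth in this was not tested. The widest promoter peak was that of the proximal Runx2 promoter in the siRNA lists, at 2668 and 2703 bp, where WT and null had separate peaks of 876 and 918 bp.

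Genes with many WT sites were used to place these windows. WT sites both set this filter and form the denominator of each ratio, so the ratios are not independent of the selection. Runx3, Cbfb, Sox9, Sp7, Acan and Comp had too few WT sites to be placed. Among 1315 protein-coding genes with at least 10 WT sites, the median ratio of sites to WT was 1 in null, 1 with NT siRNA and 1.2 with H2A.Z siRNA. For Sox5 the ratios were 0.788, 0.364 and 0.697, and for Sox6 0.842, 0.579 and 0.474. In null 16.7% of these genes were below Sox5 and 24.6% below Sox6. With NT siRNA the shares were 3.19% and 8.37%, and with H2A.Z siRNA 8.67% and 3.42%. For Runx1 the ratios were 1.06, 1.28 and 1.67, and for Runx2 0.913, 1.35 and 1.57, with 20.5% and 16.2% of genes above them with NT siRNA and 15.4% and 20.5% with H2A.Z siRNA. In both siRNA lists fewer than 10% of genes were below Sox5 or Sox6, and in null more.

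The surroundings of these genes were counted as well. In the 1 Mb on either side of the windows, the ratio of NT siRNA to WT sites was 0.823 at Sox5 and 0.822 at Sox6, while over their whole chromosomes it was 1.09 and 1.01. At Runx1, Runx2 and Runx3 the neighboring ratios were 1.48, 1.59 and 1.46, the windows' own were 1.28, 1.35 and 1.29, and the chromosome ratios were 1.1, 1.18 and 1.02. The Sp7 and Comp neighborhoods, at 1.44 and 1.31, were also above 1, and that of Sox9 was 0.782. The surroundings did not always follow the windows. For H2A.Z siRNA the neighboring ratio was 1.11 at Sox5, where the window had 0.697, for null it was 1.2 at Runx2, where the window had 0.913, and the Sox9 window held 2 sites in both WT and NT siRNA. What these surroundings contribute to the windows was not tested.

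The consensus sequences were counted in all 162 summit windows and, as the background, in windows of the same length at all 128522 sites. A RUNX match was found in 22 (13.6%, 9.14 to 19.7%) against 11.7%, a SOX match in 9 (5.56%, 2.95 to 10.2%) against 4.2%, an AP-1 match in 42 (25.9%, 19.8 to 33.2%) against 19.5%, a TEAD match in 18 (11.1%, 7.14 to 16.9%) against 11.3% and an SP1 match in 5 (3.09%, 1.33 to 7.02%) against 5.53%. Only for AP-1 was the background outside the counting interval. Of the 26 Runx gene sites called in neither WT nor null, 9 had an AP-1 match (34.6%, 19.4 to 53.8%, against 17.9% of all such sites) and 5 a RUNX match (19.2%, 8.51 to 37.9%, against 11.6%). Of the 24 Sox5 and Sox6 sites called in WT and not after H2A.Z siRNA, 7 had an AP-1 match (29.2%, 14.9 to 49.2%, against 12.4% of all such sites), and none had a SOX match (upper bound 13.8%, against 4.74%). A match describes letters and not binding.

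Lists of other skeletal genes gave context, and their counts are to be read against the 67.2%, 66.7%, 66.9% and 68.4% of all protein-coding genes with a promoter peak. Of 22 osteoblast genes, 16, 16, 16 and 17 had a promoter peak in the 4 lists, in the order above, and 5 had none in any list, among them the matrix genes Ibsp and Mepe. Alpl, which encodes alkaline phosphatase, ranked at 2.82, 22.6, 39.6 and 64.2, whereas Dmp1, a matrix protein gene of osteocytes, ranked at 61.9, 45.1, 25.5 and 24.8. Of 21 chondrocyte genes, 15, 16, 14 and 16 had a peak. The collagen gene Col11a2 ranked at 6.51, 23.7, 55.5 and 55.4, and Col10a1, the collagen of hypertrophic cartilage, at 60.4, 37.4, none and 45.6. Individual skeletal genes thus lay on either side, as did the members.

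All 11 genes of RUNX partners and corepressors had a promoter peak in every list, compared with 63.8% of protein-coding genes. They ranged from Tle2 at 8.24, 4.19, 0.419 and 6.59 to Tle1 at 95.8, 99.2, 97.4 and 96, with Cbfa2t3 at 32.6, 32.2, 61.4 and 71.3. All 8 mesenchymal transcription factors had one as well, among them Prrx1 at 30.1, 5.98, 18.3 and 27.8, Snai2 at 96.1, 92.5, 88 and 91.3 and Twist1 at 67.3, 66.9, 54.2 and 70.8. Of the 6 myogenic factors, 3, 4, 1 and 1 had a peak. Myf6 ranked at 86.3 in WT and 60.3 in null and had no peak in the siRNA lists, and Pax3 ranked at 55.9, 34.3, 36.3 and 56.8. In the windows of these myogenic genes 4 of 14 WT sites were missing after H2A.Z siRNA (28.6%, against 15.9% of all WT sites), compared with 5 of 77 in the osteoblast windows (6.49%), 12 of 77 in the chondrocyte windows (15.6%), 2 of 43 in those of the fibroblast markers (4.65%) and 6 of 31 in those of other cell types (19.4%). Missing WT sites numbered 5 of 79 in the RUNX partner windows (6.33%) and 3 of 52 in those of the mesenchymal transcription factors (5.77%). The mix of mesenchymal cell types in each culture was not measured, and fewer cells of a type cannot be told apart from less accessible chromatin in each cell.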

How the data were processed

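ATAC-seq had been done on 9 libraries of MEFs. Per the sources, the authors aligned reads to mm10 (GRCm38) with Bowtie2, removed duplicates with Picard, merged the libraries of a group and called 1 peak list per group with MACS2. The deposited lists give the fold enrichment, a ratio to local background, at the summit. The authors' −log10 p-values and −log10 q-values, the peak score and the summit offset were deposited beside it. Coverage tracks were not used here.

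Fragments at each summit were recovered from fold and −log10 p with a pseudocount of 1. They were whole within 0.05 for 100% of peaks. On simulated data, with 5000 sites per list, 100% were exact, and calls after thinning were 101% of those made directly. Peaks that overlapped or touched were merged into sites, and TSSs came from GENCODE M21. Intervals are 95% Wilson or Poisson and cover counting error only, and neighboring sites are not independent. Sites were named by rule: per gene that of highest fold, the 3 strongest called in null and NT siRNA without WT, the 3 strongest in WT alone, and the 3 largest rank differences each way among sites in all 4 lists, beside the TSS peaks. All other sites named were picked after their values were seen. Members, lists and rules were chosen with earlier results of these data known. Lists covered osteoblast, chondrocyte, RUNX partner, mesenchymal, myogenic, fibroblast and other cell type genes. Python 3.11.15, NumPy 2.4.6, SciPy 1.17.1, pandas 2.3.3 and matplotlib 3.10.9 were used. Alternatives changed the threshold, list length, depth, windows, overlap and ranking.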

Additional observations from a re-analysis of the deposited data

How the results depend on the processing

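Of 230 alternative values for 34 results, 173 kept their direction and stayed close, 53 moved and 4 changed sides of 50%. No paired analysis was possible because the libraries of a group were merged into 1 peak list, and for the same reason no replicate could be left out. The Runx and the Sox5 and Sox6 sets, with their alternatives, were added after seeing the data. The cause of the shifts was not tested. The share of sites ranking higher in null than WT was 51.2% when the −log10 q had to reach 5, equal to the 51.2% of all sites. For Runx windows it was 61.1% there, 60% by −log10 p (48.4% of all sites) and 60% in the top 20000 peaks. At that q, 17 sites were in WT and not null.

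The share higher after H2A.Z siRNA was 70.1% at equal depth (Runx 68.9%, all sites 59%). By rank among sites in all 4 lists it was 54.2% (Runx 50%, all sites 48.2%), and with equal peak numbers 53.4% (Runx 50.9%, all sites 47.2%). In the top 20000 it was 66.7% (Runx 75%), and no value over all sites was computed there. Sites after H2A.Z siRNA and not NT siRNA numbered 21 at equal depth, 18 with equal peak numbers and 58 with 50 kb flanks. Those flanks gave 20 sites in null and not WT, 213 sites in H2A.Z siRNA and 162 in NT siRNA. A reciprocal overlap of 50% gave 25 in NT siRNA and not H2A.Z siRNA, and 22 in null and not WT.

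In the top 20000 peaks, the windows held 25, 17, 18 and 19 sites in WT, null, NT siRNA and H2A.Z siRNA, with 8, 8, 11 and 10 at Runx genes and 12, 6, 4 and 6 at Sox5 and Sox6, where 40% ranked higher in null. There, 4, 2, 2 and 2 genes and 6, 2, 2 and 2 TSS clusters had a peak, median widths were 986 bp in WT and 826 bp in null, 4 sites were in null and not WT, 12 in WT and not null, 4 in H2A.Z siRNA and not NT siRNA, and 3 the reverse. Without Sox5 and Sox6, 11 TSS clusters had a peak in each of WT, null and NT siRNA, 65 sites were called in WT and 60 in null, 6 in null and not WT, 11 in WT and not null, 18 in H2A.Z siRNA and not NT siRNA, and 2 the reverse. At equal depth, meaning equal background, 8 genes and 18 TSS clusters had a peak in WT, against 9 and 19 as deposited.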
